A study of Mus musculus with 2 samples.

Results

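The Notch signalling genes described here are 4 receptors (*Notch1*, *Notch2*, *Notch3* and *Notch4*), 3 ligands (*Jag1*, *Jag2* and *Dll1*) and 3 target genes (*Hes1*, *Hey1* and *Heyl*). They were chosen by name, and 9 of the 10 had a listed tag, out of 14450 genes with a tag in either library. Digital gene expression (DGE) tag profiling counts short tags from polyadenylated RNA: *Nla*III cuts the cDNA at CATG, and *Mme*I releases CATG with the next 17 bases, 21 bases in all. The 2 libraries come from 2 mouse testis lines, 1 library each. GC-1spg came from type B spermatogonia of a mouse aged 10 days, carries pSV3-neo, and is labelled as lying between that cell and the primary spermatocyte. GC-2spd (ts) came from spermatocytes of a mouse aged 6 weeks, carries the SV40 large T antigen, and is labelled premeiotic. Both were grown in DMEM with 10% FBS and sodium bicarbonate. The lines differ in source age and transforming construct as well as in the stage they are taken to represent, and these cannot be told apart.

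The clean tags numbered 5072149 in GC-1spg against 4726808 in GC-2spd (ts), so that 1 copy was worth 0.197 and 0.212 TPM (tags per 1000000 clean tags), and no tag with fewer than 2 copies was listed. A transcript gives 1 tag whatever its length, so TPM can be set side by side between genes, apart from CATG sites whose tags cannot be assigned. Tags were matched to GENCODE M21 transcripts of the mouse genome GRCm38, and the sense tags that belonged to 1 gene only were summed. A gene was called when the two-sided Audic-Claverie test, which compares 2 counts, gave a false discovery rate (FDR, Benjamini-Hochberg over all genes) of 0.001 or less and the log2 ratio was at least 1 in size. Every test compares these 2 libraries, not the conditions, and with no replicates the intervals (95%, exact) cover counting error only. PCR copies are not independent molecules, so the intervals and the test can understate even that error. For a gene unlisted in 1 library, the fold divides its level in the other library by a Poisson limit. The limit allows 1 unlisted copy of each tag listed in the other library. Counting error of the listed level is left out, so the fold is not a lower bound. In RNA from whole cultures, fewer cells that express a gene and less RNA per cell cannot be told apart.

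Notch receptors are membrane proteins that are activated by a Jagged or Delta-like ligand on a neighbouring cell. Ligand binding lets an ADAM protease and then γ-secretase cut the receptor, and the freed intracellular domain joins RBPJ and a Mastermind coactivator on DNA. The Hes and Hey genes, which encode basic helix-loop-helix repressors, are the best known targets. In the testis, germ cells carry Jagged ligand and Sertoli cells respond through Notch receptors, which lowers the supply of factors that maintain spermatogonial stem cells.

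The tags below carry the counts of the Notch genes, and they are printed 5′ to 3′ as sequenced, with the *Nla*III site in capitals. The 3 *Notch1* tags and the tag of the overlapping gene *Gm13568* are shown because the *Notch1* result turns on which of them are counted. The antisense tags of *Notch2* and *Hes1* are shown beside the sense tags since they are abundant, with 100 and 93 copies for *Notch2* and 24 and 26 for *Hes1* in GC-1spg and GC-2spd (ts).
Notch1 end of the 3′ UTR: CATGcaaaactgtaggtaatg
Notch1 second site of the 3′ UTR: CATGcctaatagatatgacca
Notch1 coding sequence: CATGccgtcccagatcaccca
Gm13568: CATGtagttttttttttttac
Notch2 first tag: CATGgcacccaggacacagga
Notch2 second tag: CATGgaatagagacattttat
Notch2 antisense: CATGgaaccttttttattttg
Notch3: CATGgagaggaatatcctgca
Notch4: CATGgataataaagctaattt
Jag1: CATGgataaacaccagcagaa
Jag2 coding sequence: CATGgggctggtggggaggac
Jag2 3′ UTR: CATGccttggctagcccctcc
Dll1: CATGatatctgtaaagcttga
Hes1: CATGcactgcatttgtatata
Hes1 antisense: CATGgtcagtcacttaataca
Hey1: CATGaaaatgtggttcttgca

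In all, 24 distinct sense tags of the Notch genes were counted, and each matched its gene without a mismatch. Of these, 8 were listed in both libraries and 13 had only 2 or 3 copies over both. Of the 355 copies, 74.1% came from the CATG site nearest the 3′ end that leaves room for 17 bases, 71.5% lay in a 3′ UTR and 27.6% in coding sequence. The share from that last usable site was 100% for *Notch4*, *Dll1* and *Hey1*, 96.8% for *Hes1* and 85.7% for *Notch3*. It was 70.9% for *Jag1*, 32.4% for *Notch2*, 15.0% for *Jag2* and 0% for *Notch1*. The 0% for *Notch1* leaves out 109 copies in GC-2spd (ts) at that site, whose tag also matches *Gm13568*.

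For *Jag1* and *Notch2* the true last CATG lies too close to the annotated end of the transcript to give a tag that can be assigned. In *Jag1* it is the final 4 bases, and with a poly(A) tail its tag reads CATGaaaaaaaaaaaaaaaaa, which 930 genes would share. In *Notch2* it leaves 4 bases, and the tag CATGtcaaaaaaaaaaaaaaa would be shared by 55 genes. Transcripts cut at these sites are not in the sums, so the levels of *Jag1* and *Notch2* relative to the other genes are uncertain. Their ratios between the lines also rest on the other sites only. In GC-1spg and GC-2spd (ts), the shared tag had 8399 and 2198 copies for *Jag1* and 2016 and 708 for *Notch2*. How many of these copies came from either gene cannot be told.

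**Figure D1:**
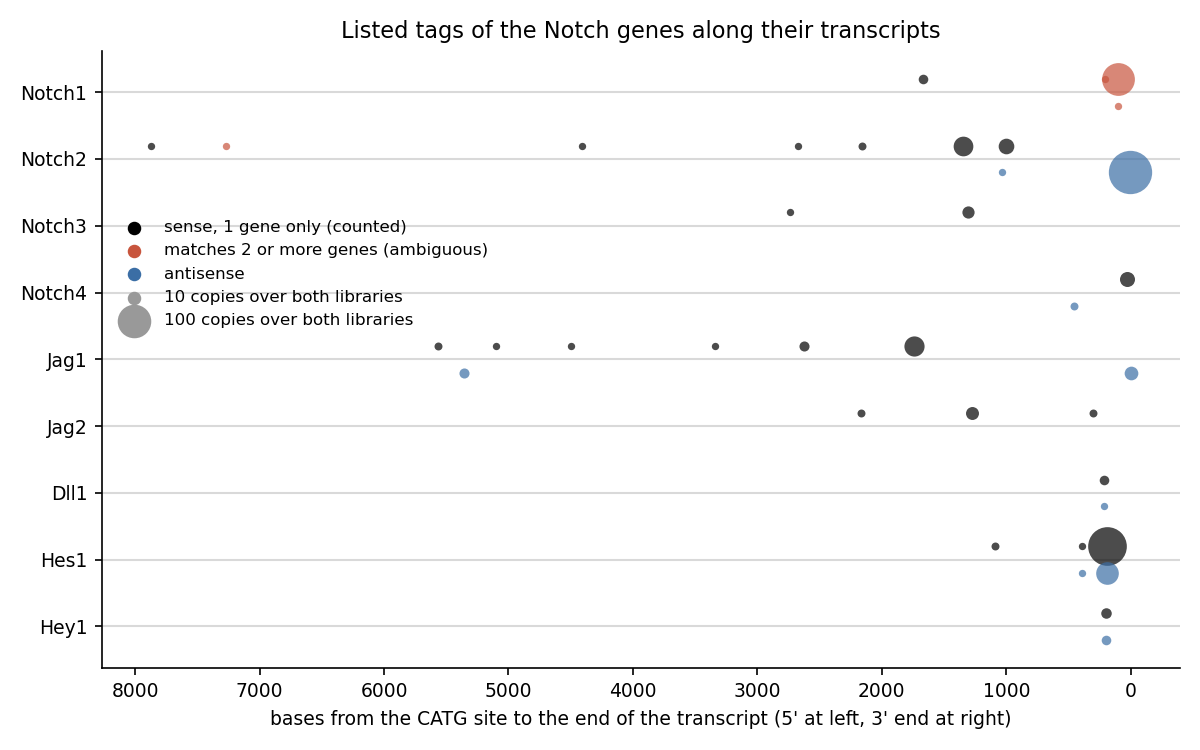
Listed tags of the 9 Notch genes by distance in bases from the CATG site to the end of the transcript (horizontal axis, 3′ end at the right), with point area growing with the copies over both libraries; sense tags lie above each line and antisense tags below. The *Hes1*, *Hey1*, *Dll1* and *Notch4* counts sit near the 3′ end, the largest *Notch1* point (109 copies) is ambiguous, and the largest *Notch2* point (193 copies) is antisense.

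*Notch2* was the receptor listed at a similar level in both lines. It had 35 tags in GC-1spg against 33 in GC-2spd (ts), or 6.90 TPM (4.81 to 9.60) and 6.98 TPM (4.81 to 9.81). The log2 ratio of GC-2spd (ts) over GC-1spg was 0.017 (-0.71 to 0.75), and the Audic-Claverie FDR was 1. For the counted tags, the interval leaves room for a change of less than 2-fold either way. Its main tags lie in the 3′ UTR in exon 34, at chr3:98149011-98149031 with 21 and 16 copies and at chr3:98149357-98149377 with 12 and 10 copies, so that both sites gave near equal counts in the lines.

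*Notch3* and *Notch4*, receptors best known from vascular smooth muscle and from endothelium, were each listed under 3 TPM in both lines. *Notch3* had 10 tags (1.97 TPM, 0.945 to 3.63) in GC-1spg against 4 (0.846 TPM, 0.231 to 2.17) in GC-2spd (ts), for a log2 ratio of -1.22 (-3.35 to 0.57) and an Audic-Claverie FDR of 0.241. *Notch4* had 8 tags (1.58 TPM, 0.681 to 3.11) and 12 tags (2.54 TPM, 1.31 to 4.44), for a log2 ratio of 0.69 (-0.72 to 2.18) and an Audic-Claverie FDR of 0.517. The intervals of the 2 lines overlapped for both genes, and a difference of this size was not detectable at this depth. The *Notch3* tag lies in coding sequence of exon 33 (chr17:32122108-32122128, minus strand), 1305 bases from the transcript end, and the *Notch4* tag lies in the 3′ UTR in exon 30 (chr17:34588469-34588489), 31 bases from the end.

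*Notch1*, the receptor most often altered in T-cell leukaemia, had no tag in GC-1spg under any assignment, and its level in GC-2spd (ts) depended on how an overlapping gene was treated. With tags that belong to 1 gene only, it had 0 tags in GC-1spg against 6 in GC-2spd (ts), or 1.27 TPM (0.466 to 2.76). That level was 1.36-fold the limit for GC-1spg, and the gene was not called (Audic-Claverie FDR 0.052). All 6 were copies of the coding tag in exon 34 (chr2:26459553-26459573, minus strand), at the site numbered 10 from the 3′ end. With a sense match preferred over an antisense match, it had 0 and 117 tags, or 24.8 TPM (20.5 to 29.7) in GC-2spd (ts). That level was 16.2-fold the limit for GC-1spg, and the gene was called (Audic-Claverie FDR 3.94e-36). The limit on its level in GC-1spg was 0.935 TPM for the 1 counted tag and 1.53 TPM for all 3 tags. The interval of the 6 tags includes the limit of 0.935 TPM.

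The difference between the assignments came from tags at the end of *Notch1*, where *Gm13568*, a noncoding gene on the plus strand (chr2:26457144-26458316), runs against it. The tag nearest the end (chr2:26457985-26458005, 3′ UTR in exon 34, 99 bases from the end) had 0 and 109 copies, and the next (chr2:26458092-26458112) had 0 and 2. Read on the other strand, both sequences also belong to *Gm13568* as antisense tags. The sense tag of *Gm13568* itself, at the same CATG site as the 109 copies, had 0 copies in GC-1spg against 2 in GC-2spd (ts). The protocol fixes the direction of a tag from its CATG, so the 109 copies were read in the direction of *Notch1*. Which gene's transcript they came from was not tested.

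Of the receptor tags, *Notch2* took 66.0% of 53 in GC-1spg (Wilson 95% interval 52.6 to 77.3) and 33 of 55, or 60%, in GC-2spd (ts) (46.8 to 71.9). *Notch1* took 0% in GC-1spg, with an upper bound of 6.76%, and 10.9% in GC-2spd (ts) (5.10 to 21.8). With sense matches preferred, *Notch1* took 70.5% of 166 receptor tags in GC-2spd (ts) (63.1 to 76.9) and *Notch2* 19.9% (14.5 to 26.6). The receptor with the most counted tags in GC-2spd (ts) was therefore *Notch2* under the first assignment and *Notch1* under the second. *Notch2* transcripts cut at its last CATG, whose tag cannot be assigned, are not in these shares or their intervals.

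In GC-2spd (ts), 2 of the 3 ligands were called lower and the remaining one was not called. Over all genes 7.84% were called lower, and 2 calls are too few to set apart from this share. Together the 3 ligands had 72 tags in GC-1spg against 9 in GC-2spd (ts), or 14.2 and 1.90 TPM. *Jag1* was the only ligand listed in GC-2spd (ts). *Jag1*, which encodes the Jagged ligand that is mutated in Alagille syndrome, had 46 tags (9.07 TPM, 6.64 to 12.1) in GC-1spg against 9 (1.90 TPM, 0.871 to 3.61) in GC-2spd (ts), and the intervals did not overlap. Its log2 ratio was -2.25 (-3.47 to -1.20) (Audic-Claverie FDR 4.23e-06), and it was called lower. Transcripts cut at its last CATG are in neither count. The tag in coding sequence of exon 26 (chr2:137083181-137083201, minus strand) had 32 and 7 copies. The other 5 sense tags had 14 copies between them in GC-1spg against 2 in GC-2spd (ts), so no *Jag1* tag was more abundant in GC-2spd (ts).

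*Jag2*, the second Jagged ligand, had 20 tags (3.94 TPM, 2.41 to 6.09) in GC-1spg against 0 in GC-2spd (ts). Its level in GC-1spg was 2.40-fold the limit for GC-2spd (ts), and it was called lower (Audic-Claverie FDR 8.32e-06). Its coding tag in exon 26 (chr12:112909075-112909095, minus strand) had 14 and 0 copies, its 3′ UTR tag (chr12:112908104-112908124) 3 and 0, and a coding tag in exon 22 (chr12:112911751-112911771) 3 and 0. The 14 copies came from the site numbered 5 from the 3′ end and not from the last one. When only the last usable site of each transcript was read, it had an Audic-Claverie FDR of 0.0444 and was not called. The limits on the levels in GC-2spd (ts) were 1.64 TPM for *Jag2* and 1.004 TPM for *Dll1*. *Dll1*, a Delta-like ligand, had 6 tags (1.18 TPM, 0.434 to 2.58) and 0. That level was 1.18-fold its limit for GC-2spd (ts), the interval includes this limit, and the gene was not called (Audic-Claverie FDR 0.043). All 6 were the tag in the 3′ UTR in exon 11 (chr17:15367556-15367576, minus strand).

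Of the targets, *Hes1* and *Hey1* were listed in both lines and neither was called. *Hes1*, which represses differentiation genes, had 91 tags (17.9 TPM, 14.5 to 22.0) in GC-1spg against 67 (14.2 TPM, 11.0 to 18.0) in GC-2spd (ts), for a log2 ratio of -0.34 (-0.82 to 0.13) and an Audic-Claverie FDR of 0.227. The tag in the 3′ UTR in exon 4 (chr16:30067600-30067620) had 88 and 65 of these copies. *Hey1*, best known from vessels and heart, had 4 tags in each line, or 0.789 TPM (0.215 to 2.02) and 0.846 TPM (0.231 to 2.17), all from the tag at chr3:8663538-8663558 on the minus strand, and its log2 ratio of 0.10 (-2.32 to 2.53) leaves a wide range. *Heyl* had 0 listed tags in both libraries although its transcripts hold 26 CATG tags, so it was not detectable at this depth, and no limit was set for it.

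**Figure D2:**
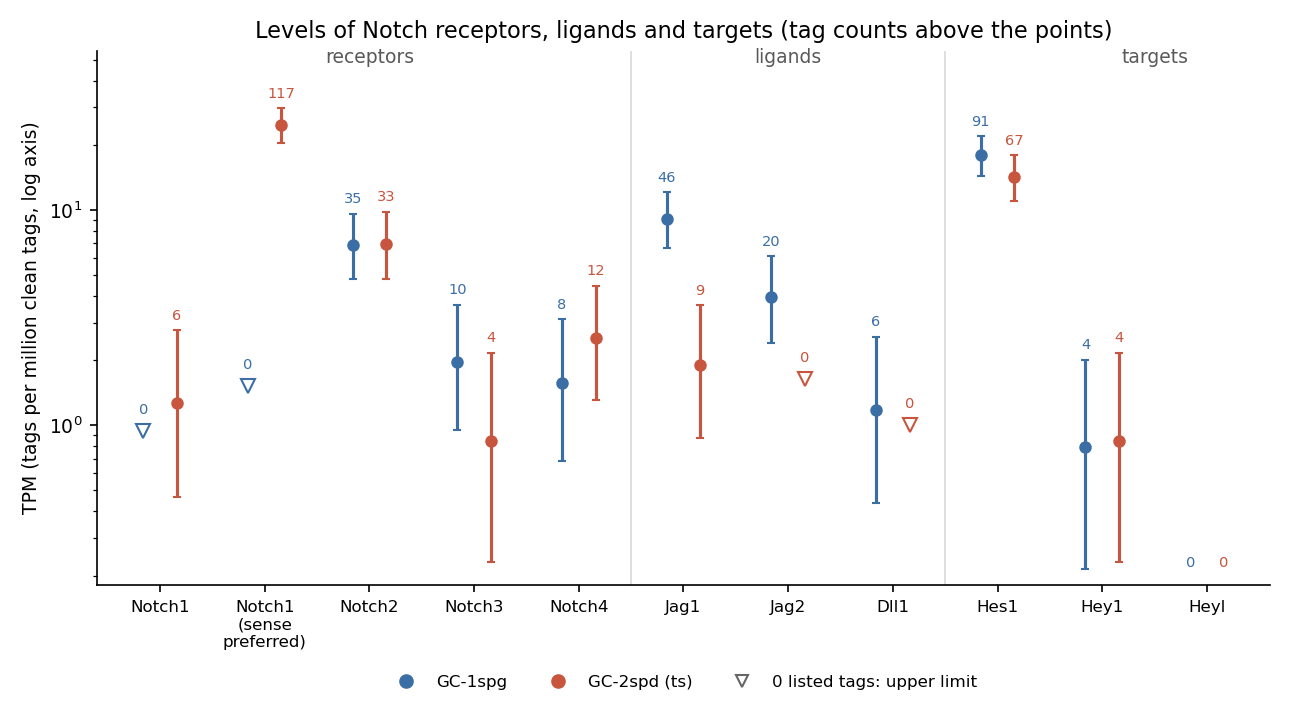
TPM of each Notch gene in GC-1spg (blue) and GC-2spd (ts) (red) on a log axis, with exact Poisson 95% intervals as bars, tag counts above the points and open triangles for the upper limit of a gene with 0 tags; *Heyl*, with 0 in both, has no limit. *Jag1* is the only gene listed in both lines whose bars do not overlap, and *Notch1* in GC-2spd (ts) moves from 6 to 117 tags between the assignments.

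In GC-1spg, *Hes1* had the highest level of the Notch genes and its interval did not reach that of *Jag1*, which came next. From *Jag1* through *Notch2*, *Jag2*, *Notch3*, *Notch4* and *Dll1* to *Hey1*, each interval overlapped the next. In GC-2spd (ts), *Hes1*, *Notch2* and *Notch4* followed each other with intervals that did not overlap, and *Notch4*, *Jag1*, *Notch1*, *Hey1* and *Notch3* overlapped each with the next. With sense matches preferred, *Notch1* stood above *Hes1* in GC-2spd (ts), again without overlap. Against all tested genes, in GC-1spg and GC-2spd (ts) in turn, *Hes1* had more tags than 64.3% and 56.7%, *Notch2* more than 46.6% and 45.6%, and *Jag1* more than 50.9% and 30.7%. The places of *Jag1* and *Notch2* leave out transcripts cut at their last CATG.

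Of the 10 Notch genes, 0 were called higher in GC-2spd (ts), 2 were called lower, 7 were not called and 1 had no tag. Over the whole table, 2817 of 14450 genes were called (19.5%), 1684 higher (11.7%) and 1133 lower (7.84%). The 2 calls among 9 listed Notch genes are too few to set apart from these shares. With sense matches preferred, 1 Notch gene was called higher and 2 lower, beside 2955 of 15280 genes (19.3%), 1767 higher (11.6%) and 1188 lower (7.77%). The median log2 ratio of the Notch genes listed in both lines was -0.16, and that of all genes listed in both was 0.16. TMM scaling, edgeR's trimmed mean of M values, shifted every log2 ratio by -0.17 and split the calls over all genes into 1292 higher and 1443 lower, with *Jag1* and *Jag2* still called lower. With an assumed spread between cultures (edgeR, biological coefficient of variation of 0.4), neither was called, and at 0.2 *Jag2* was. The calls rest on low counts, since the median tested gene had 95 tags over both libraries. With 0 tags in GC-1spg, at least 12 tags in GC-2spd (ts) were needed for a call, and 13 the other way. *Notch1* with 6 tags and *Dll1* with 6 were short of these counts.

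**Figure D3:**
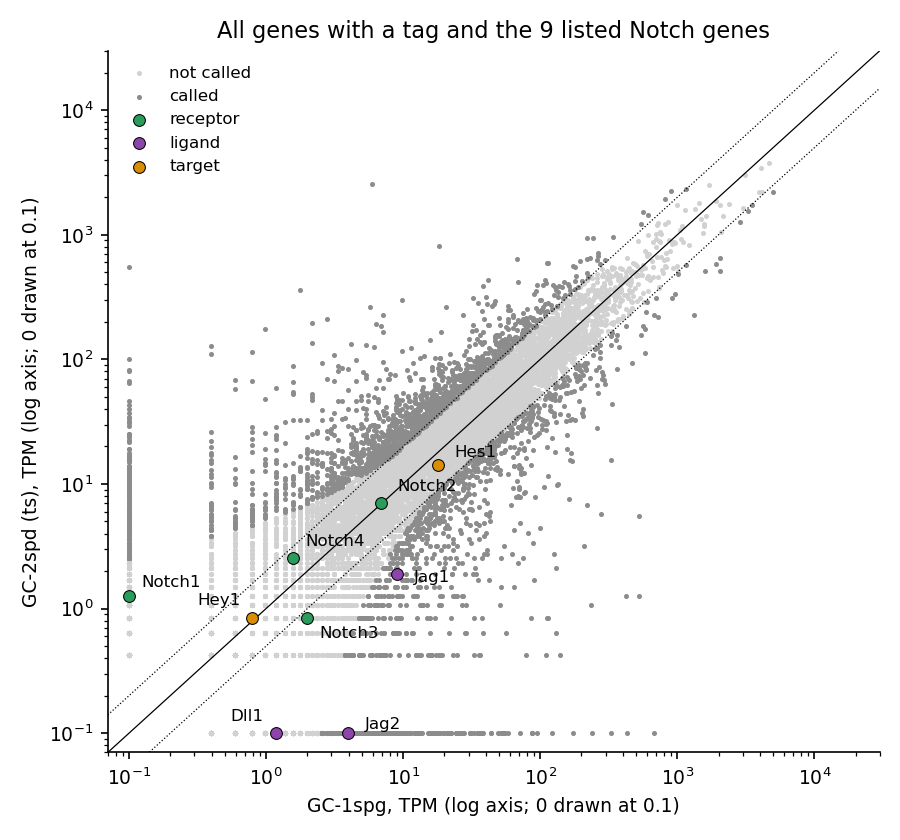
TPM of each of the 14450 genes in GC-1spg (horizontal) and GC-2spd (ts) (vertical), both on log axes with 0 drawn at 0.1, called genes in dark grey and the 9 listed Notch genes in colour; the solid line is equality and the dotted lines are a 2-fold difference. *Jag1* and *Jag2* lie among the called genes below the lower dotted line, while *Notch2* and *Hes1* lie near equality.

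Among 64 other genes of the pathway, 54 had a tag, 7 were called higher in GC-2spd (ts), 7 were called lower and 40 were not called. The called share, 14 of 54, stands beside 19.5% over all genes, and the median log2 ratio of the list was 0.19 beside 0.16. The largest Audic-Claverie FDR of a called gene was 0.000799, for *Psen2*. No tag was listed for *Dll3*, *Dll4*, *Dner*, *Aph1c*, *Mfng*, *Dtx1*, *Hes2*, *Hes3*, *Hes5* and *Nrarp*. With sense matches preferred, *Nrarp*, a target that feeds back on the receptor's nuclear complex, had 14 and 0 tags and was called lower.

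Of the 5 other ligands and ligand-like genes, only the Delta-like homologues *Dlk1* and *Dlk2*, membrane proteins that resemble the ligands but lack their receptor-binding domain, had tags, and they moved in opposite directions. *Dlk1* had 0 tags in GC-1spg against 38 in GC-2spd (ts) (8.04 TPM), 6.48-fold the limit for GC-1spg, and the Audic-Claverie FDR was 1.37e-11. *Dlk2* had 53 and 7 tags (10.5 and 1.48 TPM), for a log2 ratio of -2.82 (-4.20 to -1.68). Beside the 2 called Jagged genes, *Dlk2* was thus a further ligand-like gene with fewer tags in GC-2spd (ts), while *Dlk1* went the other way.

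Among 10 genes for receptor cleavage, 1 was called higher and 0 lower. *Psen2*, a catalytic subunit of γ-secretase, had 10 and 33 tags, for a log2 ratio of 1.82 (0.77 to 3.01). *Adam10*, the protease that makes the first cut after ligand binding, had 385 and 551 tags, and *Adam17*, a related protease, 103 and 124. With sense matches preferred, *Adam17* had 168 and 149 tags, and its log2 ratio was -0.07 in place of 0.37 and was not called in either case. The log2 ratio of *Adam10* was 0.62 (0.43 to 0.81), under the size needed for a call. The median log2 ratio over the cleavage genes listed in both lines was 0.71, beside 0.16 over all genes listed in both. With sense matches preferred, the cleavage median was 0.62.

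Among 5 sugar transferases that act on the receptors, *Lfng*, the fringe enzyme that changes which ligands a receptor answers to, was called lower. It had 174 tags (34.3 TPM) in GC-1spg against 54 (11.4 TPM) in GC-2spd (ts), for a log2 ratio of -1.59 (-2.06 to -1.14). *Pofut1*, which adds the O-fucose that fringe extends, had 96 and 89 tags (96 and 96 with sense matches preferred), and *Poglut1*, which adds O-glucose, had 59 and 72, and neither was called.

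Of 13 ubiquitin ligases and endocytic regulators, 2 were called higher and 3 lower. The ligases that act on ligands split: *Mib1* had 253 and 487 tags, for a log2 ratio of 1.05 (0.82 to 1.27), and *Neurl1a* had 328 and 20 tags, for a log2 ratio of -3.93 (-4.66 to -3.28). The Deltex genes split too. *Dtx4* (218 and 24 tags, log2 ratio -3.08) and *Dtx2* (230 and 101 tags, -1.09) were called lower, and *Dtx3l* (76 and 186 tags, 1.39) was called higher. *Dtx3* had 79 and 72 tags and *Numb*, an inhibitor of Notch, 35 and 28, and neither was called.

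Of the 9 genes for the nuclear complex and its coactivators, 0 were called in either direction. *Rbpj*, the DNA-binding partner of all the receptors, had 524 tags (103 TPM) in GC-1spg against 519 (109.8 TPM) in GC-2spd (ts), for a log2 ratio of 0.09 (-0.09 to 0.27), which is a narrow interval around equality. *Ep300*, a histone acetyltransferase, had 1153 and 635 tags, for a log2 ratio of -0.76 (-0.90 to -0.62), under the size needed for a call. In both lines the counted TPM of *Rbpj* was higher than that of each receptor. *Notch2* transcripts cut at its last CATG are left out of this comparison.

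Of 13 corepressors, 2 were called higher and 1 lower, all 3 from the Groucho family, through which Hes proteins repress. *Tle4* had 128 and 11 tags, for a log2 ratio of -3.44 (-4.48 to -2.55). *Tle5*, a short member that lacks much of the family's structure, had 610 and 1289 tags, for a log2 ratio of 1.18 (1.04 to 1.32), and *Tle6* had 31 and 65 tags, for a log2 ratio of 1.17 (0.53 to 1.84). *Ctbp1* had 1692 and 1181 tags, for a log2 ratio of -0.42 (-0.53 to -0.31), under the size needed for a call.

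Of 9 further targets and relatives of Hes and Hey, 1 was called in each direction, both of them Hes and Hey relatives that are also known as circadian regulators. *Bhlhe40* had 1060 and 293 tags, for a log2 ratio of -1.75 (-1.94 to -1.56), and *Bhlhe41* had 11 and 70, for a log2 ratio of 2.77 (1.84 to 3.84). *Hes6* had 62 and 65 tags and *Hey2* 2 and 11, and neither was called. *Psen2*, *Mib1* and *Tle6* were no longer called under TMM, DESeq2 size factors or scaling to unambiguous sense tags. *Mib1* and *Bhlhe41* were not called with the last usable CATG site only, *Tle5* was not with the longest transcripts, and with a coefficient of variation of 0.4 in edgeR none of the 14 was.

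**Figure D4:**
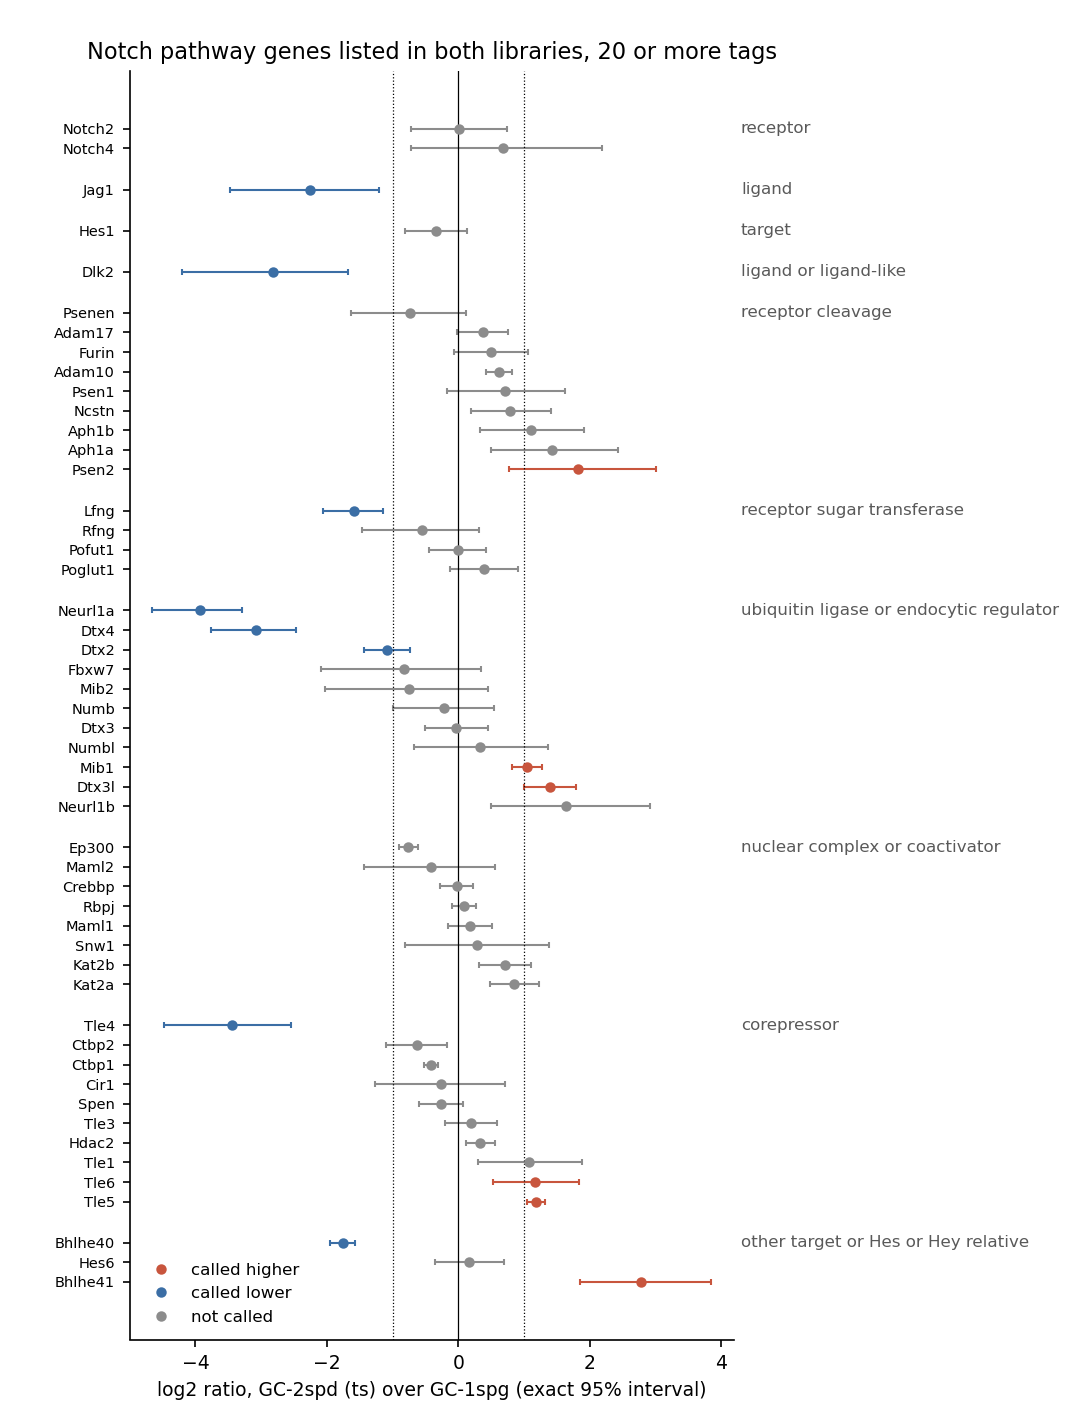
Log2 ratio of GC-2spd (ts) over GC-1spg with exact 95% intervals for the Notch pathway genes listed in both lines with 20 or more unambiguous tags and reported here, grouped by role, red for called higher, blue for called lower and grey for not called; dotted lines mark a 2-fold difference. The calls lie on both sides, from *Neurl1a* at -3.93 to *Bhlhe41* at 2.77, and the nuclear complex has none.

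The labelled germ cell origin was checked with 14 germ cell markers, of which 1 was listed: *Spo11* had 2 tags in GC-1spg against 0 in GC-2spd (ts). *Ddx4*, *Dazl*, *Kit*, *Stra8*, *Sycp1* and *Sycp3* were among the 13 at 0 in both. With sense matches preferred, 3 of the 14 were listed, with 7 tags in all in GC-1spg against 11 in GC-2spd (ts). *Gfra1* had 3 and 11 of these, and *Sycp3* and *Spo11* 2 and 0 each. Markers of some somatic cells were abundant, and several differed between the lines. Of 6 fibroblast markers, 5 were listed, with summed levels of 2673 TPM in GC-1spg against 1002 TPM in GC-2spd (ts), *Thy1* being at 0. The sums follow *Col1a1*, at 2063 and 513 TPM and called lower, while *Col3a1*, at 9.86 and 25.4 TPM, was called higher, and *Col1a2* (119 and 192 TPM), *Fn1* (463.5 and 256 TPM) and *Pdgfra* (16.8 and 15.7 TPM) were not called. Of 7 Sertoli cell markers, 4 were listed, at 134.7 and 38.9 TPM, of which *Wt1* had 620 and 0 tags, *Gata4* 29 and 138 and *Sox9* 29 and 46, while *Fshr*, *Rhox5* and *Cldn11* were at 0. All 7 markers of peritubular myoid and mural cells were listed, at 13.0 and 162 TPM. *Acta2* had 50 and 555 tags, and *Cspg4* and *Pdgfrb* 0 in GC-1spg against 104 and 84 in GC-2spd (ts), and these 3 were called higher. The other 4 were not called: *Des* had 11 and 4 tags, *Cnn1* 5 and 15, and *Myh11* and *Rgs5* 0 and 2 each. Leydig cell markers (2 of 6 listed, 0.789 and 1.06 TPM) and endothelial markers (1 of 7 listed, 0.394 and 0.846 TPM) were near 0 in both, *Pecam1*, *Cdh5* and *Cyp17a1* being unlisted. The part of these cell type differences in the values of the ligands, of *Notch1* and of the other pathway genes was not tested.

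RefSeq promoter windows (GRCm38.p6, 250 bases before to 50 after a start) were found for 7 of the 10 Notch genes. The letters TGGGAA, the core of the RBPJ motif, stood on either strand in 0 of their 8 windows, and in 25.6% of 32851 windows over all genes. *Hes1*, *Hey1* and *Heyl* had no window in the table.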

How the data were processed

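Tag sequences with raw counts (copy numbers) and TPM were deposited by the authors for 1 DGE library per line, after adaptor sequences, low quality reads and tags seen once had been filtered. The deposited TPM is the count per 1000000 clean tags. The authors mapped tags to UniGene clusters with 1 mismatch, with a program not given in the sources used here. RNA had an average RIN of 8.9.

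Here CATG+17 tags of 141767 GENCODE M21 transcripts (55450 genes, GRCm38) were matched with at most 1 mismatch, exact matches first, on both strands. Sense counts of tags that matched 1 gene only were summed, and again with sense matches preferred over antisense. For calls, 0.01 TPM stood in for 0 in the log2 ratio. The two-sided Audic-Claverie test with Benjamini-Hochberg adjustment over all genes with a tag was tested on simulated data. Ratios carry conditional binomial (Clopper-Pearson) intervals, levels exact Poisson intervals, and 1 unlisted tag has a limit of 4.74 copies. edgeR's quasi-likelihood test needs replicates and could not be fitted. *Tle5* is *Aes* in the annotation.

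The Notch genes and the lists were chosen with earlier results of these data known. The text names all 10 Notch genes, every called gene of the other pathway list, the 2 uncalled genes with the most tags in each role, and listed markers. A gene that this rule names is not reported here. The unlisted genes named with them, with *Gm13568* and *Nrarp*, were named after their values were seen. Alternatives were no mismatches, no pseudogenes, the last usable CATG site, the longest transcript, both strands summed, TMM, DESeq2 size factors, an exact binomial test, scaling to unambiguous sense tags, edgeR's exact test with an assumed biological coefficient of variation (BCV), a minimum of 10 tags and 0.5 tags added to both counts. Transcripts with a poly(A) tail were added after seeing the data. The software was R 4.3.3 with edgeR 4.0.16 and DESeq2 1.42.0, and Python 3.11.15 with scipy 1.17.1, numpy 2.4.6, matplotlib 3.10.9 and pandas 2.3.3.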

Additional observations from a re-analysis of the deposited data

Results flagged for a closer look

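Tags outside the counted ones were listed for several Notch genes above 6.3 copies, the limit for 2 unlisted tags. *Notch1* had 111 ambiguous copies in GC-2spd (ts) and 0 in GC-1spg, in 2 tags that also match *Gm13568* on the other strand.

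*Notch2* had 102 antisense copies in GC-1spg against 93 in GC-2spd (ts), more than its 35 and 33 sense copies. Of these, 100 and 93 were the tag CATGgaaccttttttattttg (chr3:98150337-98150357), which starts at the last CATG of the transcript, 4 bases from its annotated end, where no sense tag can be assigned. *Jag1* had 20 antisense copies in GC-1spg against 3 in GC-2spd (ts), of which 13 and 3 were read from the final CATG of its transcript.

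*Hes1* had 24 antisense copies in GC-1spg against 28 in GC-2spd (ts). The tag CATGgtcagtcacttaataca, with 24 and 26 of these, was read from the same CATG site as the main sense tag with 88 and 65 copies. *Hey1* also had 3 antisense copies in each line at the site of its 4 sense copies. No control library was available for comparison, and the source of these tags was not tested.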

How the results depend on the processing

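No paired analysis was possible because each line has 1 library. With 1 library there is also no estimate of the spread between cultures, which limits every call: the exact test in edgeR at an assumed BCV of 0.2 called 1 Notch gene (*Jag2*), 7 other pathway genes and 1000 genes in all, and a BCV of 0.4 called 0, 0 and 244, beside 2, 14 and 2817 by the Audic-Claverie test. The FDR of *Jag1* was 0.00454 and 0.278 under these BCVs, and that of *Jag2* under a BCV of 0.4 was 0.0333. Reading only the last usable CATG site left 1 call (*Jag1*). For *Jag1* that site lies 1742 bases from the transcript end, and its true last CATG was not read.

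Uncalled log2 ratios near 0 changed sign. *Notch2* was at -0.16 with the last usable site only and -0.019 with both strands summed. It was at -0.16 under TMM, -0.15 under DESeq2 size factors and -0.067 under scaling to sense tags. *Hey1* was at -0.072 under TMM and -0.062 under DESeq2 size factors. *Dll1* moved to 0.37 with poly(A) tails, an alternative chosen after seeing the data, through 1 mismatched tag with 62 and 82 copies.

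The receptor shares also moved. In GC-1spg, the last usable site gave *Notch2* 42.9% and *Notch4* 28.6%, and both strands summed gave *Notch2* 86.7%, *Notch3* 6.33% and *Notch4* 6.96%. In GC-2spd (ts), *Notch1* took 70.5% with sense matches preferred, 0% with the last usable site and 4.05% with both strands. In the same order, *Notch2* took 19.9%, 38.5% and 85.1%, and *Notch4* 7.23%, 46.2% and 8.11%. *Notch3* took 2.41% with sense matches preferred and 2.70% with both strands. The 0% for *Notch1* leaves out its ambiguous tag at the last usable site. Over all alternatives, another 127 values of single Notch genes kept their direction and call, and 73 counts and shares stayed within their error or within 1.5 times.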
